A study of Mus musculus with 8 samples.

Results

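Hemidesmosomes are the junctions that fix basal keratinocytes to the basement membrane. In the type found in skin, the integrin formed by Itga6 and Itgb4 and the transmembrane collagen Col17a1 bind laminin-332 outside the cell, and the plakins Dst and Plec tie them to keratin filaments inside. Col17a1 in hair follicle stem cells is known for its part in anchoring them in the bulge, the niche at the base of the resting follicle.

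The 8 genes described here, Col17a1, Itga6, Itgb4, Dst, Plec, Lama3, Lamb3 and Cd151, were chosen by symbol, and all 8 were present in both tables, which together held 24755 genes. The study asked how loss of Msx2, a homeobox transcription factor, altered stem cells of mouse skin. Cells were sorted from telogen (resting phase) dorsal skin of WT mice (C57BL/6J, per the study's methods) and of Msx2-KO mice, in which a neo cassette was placed upstream of exon 2 of Msx2. Each genotype gave 2 libraries of hair follicle stem cells (HFSCs) and 2 of epidermal progenitor cells (EpdSCs), 8 in all. The allele is carried by every cell of the mouse, not by the sorted cells alone. WT HFSCs came from mice 2 months old and Msx2-KO HFSCs from mice 6 months old, so that age and genotype cannot be told apart in HFSCs. All EpdSC mice were 6 months old. In both cell types, the names of the WT libraries run in a different series from those of the Msx2-KO libraries. What these series stand for is not given, and genotype cannot be told apart from them. The labels do not say whether the libraries came from separate mice, and p-values therefore measure only the spread between these samples.

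Some facts of the series bear on every value. HFSC libraries held 3132970 to 11016700 counts, and EpdSC libraries an estimated 15213700 to 21092700. The share of mitochondrial ribosomal RNA was 8.94% and 36.3% for WT HFSCs, 49.4% and 53.2% for Msx2-KO HFSCs, 23.5% and 16.4% for WT EpdSCs, and 0.0730% and 6.18% for Msx2-KO EpdSCs. Genes above 0 numbered 22867 and 20229 in WT HFSCs against 11749 and 14616 in Msx2-KO HFSCs. Across genes, log2 values correlated between the WT replicates at r = 0.927 in HFSCs and 0.952 in EpdSCs, and between the Msx2-KO replicates at 0.578 and 0.844. Msx2 itself did not separate the genotypes. WT HFSCs held 53 and 7 estimated counts of it and Msx2-KO HFSCs 40 and 18, and normalized values were 58.5 and 85.4 for WT EpdSCs against 150 and 22.2 for Msx2-KO EpdSCs. Counts were per gene and the allele is an insertion, so this does not check the labels. Genotypes below are those of the labels, and the libraries are called labelled Msx2-KO where a direction is drawn.

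Promoter sequence was at hand for 4 of the 8 genes, as the 250 bases before the start of transcription in RefSeq on GRCm38.p6, in 7 entries. The 3 printed here belong to the collagen that heads the list, to the gene with the largest HFSC difference and to the gene whose HFSC groups overlapped. Each reads 5′ to 3′ toward the transcript start of its entry, which need not be the outermost start of the gene. The Dst window lies inside the Dst span given below, and the Col17a1 window overlaps the edge of the Col17a1 span. Capitals mark matches to 4 motifs, searched on both strands and not overlapping one another in these windows. TAATTG stands for the core that Msx-type homeobox proteins bind, the AP-1 motif was searched as TGANTCA, the GC box as GGGCGG, and the TATA box as TATAAA.
Col17a1, chr19:47692043-47692292, minus strand: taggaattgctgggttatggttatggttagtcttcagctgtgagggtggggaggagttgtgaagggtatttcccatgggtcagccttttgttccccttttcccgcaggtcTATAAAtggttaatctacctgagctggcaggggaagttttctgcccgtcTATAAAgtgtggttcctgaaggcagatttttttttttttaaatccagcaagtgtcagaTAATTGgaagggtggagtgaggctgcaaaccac
Dst, chr1:34160010-34160259, plus strand: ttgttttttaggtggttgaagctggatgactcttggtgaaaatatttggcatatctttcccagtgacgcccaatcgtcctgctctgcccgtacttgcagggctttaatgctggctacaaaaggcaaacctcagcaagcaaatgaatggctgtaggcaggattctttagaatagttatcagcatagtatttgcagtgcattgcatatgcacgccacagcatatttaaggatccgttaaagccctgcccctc
Cd151, chr7:141467112-141467361, plus strand: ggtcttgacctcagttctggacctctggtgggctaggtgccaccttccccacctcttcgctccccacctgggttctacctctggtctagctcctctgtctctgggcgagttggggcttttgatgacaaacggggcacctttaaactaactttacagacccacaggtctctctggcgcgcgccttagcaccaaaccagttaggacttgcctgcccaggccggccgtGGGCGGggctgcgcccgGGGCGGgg

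Col17a1 held TAATTG once, 33 bases before the start of its entry and within the Col17a1 span given below. That motif was present in 7.17% of 32851 promoters of the same length. Col17a1 also held TATAAA at 140 and 91 bases, a motif present in 12.4% of promoters. The Dst entry printed held none of the 4 motifs, while another Dst entry (chr1:34011345-34011594) held 4 GC boxes. The Cd151 entry held GC boxes at 25 and 8 bases, and 32.7% of all promoters held at least 1. TGANTCA was in 6.75% of promoters and in none of the 7 entries. These matches describe letters in a window, not binding.

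In HFSCs, 7 of the 8 genes were lower in each library labelled Msx2-KO than in either WT library, as were 33.5% of all genes tested. The differences of Dst, Itgb4 and Col17a1 were the largest, each over 2-fold. Only Cd151, a tetraspanin that associates with laminin-binding integrins, overlapped between the genotypes. None of the 8 was called by edgeR's quasi-likelihood test at an adjusted p under 0.05 and a fold over 2, and neither was any of the 14422 genes tested (0%).

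The values are normalized counts, scaled to a common library size. Col17a1 (chr19:47646344-47692095, minus strand, GRCm38) was at 22397 and 21342 in WT HFSCs. In the libraries labelled Msx2-KO it was at 10627 and 11059, a level below both WT libraries with no overlap. This was 2.02-fold lower, with a log2 difference of -1.01 ± 0.37 (SE, n = 2 per group), and an adjusted p of 0.273 in edgeR.

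The integrin that pairs with Col17a1 in the membrane showed the same order of groups. Itgb4 (chr11:115974709-116008413, plus strand), whose long cytoplasmic tail binds plectin, was at 3368 and 3558 in WT and at 1371 and 1479 in Msx2-KO HFSCs. The groups lay far apart relative to the gaps inside them, and the log2 difference was -1.28 ± 0.23 (adjusted p = 0.143 in edgeR). Itga6 (chr2:71745616-71858417, plus strand) was at 1012 and 1156 in WT and at 742 and 499 in Msx2-KO HFSCs, with a log2 difference of -0.80 ± 0.29 and an adjusted p of 0.276 in edgeR. Itga6 encodes CD49f, one of the surface proteins on which both cell types were sorted, and the effect of that gate on its RNA was not tested. Cd151 (chr7:141467392-141471474, plus strand) was at 192 and 189 in WT and at 249 and 184 in Msx2-KO HFSCs. Its groups overlapped, with a log2 difference of 0.18 ± 0.36 and an adjusted p of 0.909 in edgeR.

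The 2 plakins of the inner plaque differed in size of effect. Dst (chr1:33908225-34308662, plus strand), whose epithelial isoform is BPAG1e, was at 66343 and 65402 in WT and at 21151 and 22831 in Msx2-KO HFSCs. The log2 difference was -1.58 ± 0.55 (adjusted p = 0.250 in edgeR), the largest difference among the 8 genes. Plec (chr15:76170974-76232575, minus strand), which encodes plectin, was at 16381 and 20831 in WT and at 13639 and 10664 in Msx2-KO HFSCs. Its groups did not overlap, yet the gap between them was smaller than the gap within WT, and edgeR gave a log2 difference of -0.61 ± 0.40 with an adjusted p of 0.575.

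Lama3 and Lamb3 encode the α and β chains of laminin-332, the ligand of the junction. Lama3 (chr18:12333819-12583014, plus strand) was at 1951 and 1838 in WT and at 1065 and 900 in Msx2-KO HFSCs, and its log2 difference was -0.95 ± 0.23 (adjusted p = 0.143 in edgeR). Lamb3 (chr1:193207699-193343879, plus strand) was at 2132 and 1919 in WT and at 1536 and 715 in Msx2-KO HFSCs. The 2 Msx2-KO libraries differed from each other by more than the higher of them differed from WT, and edgeR gave a log2 difference of -0.85 ± 0.44 with an adjusted p of 0.455.

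**Figure D1:**
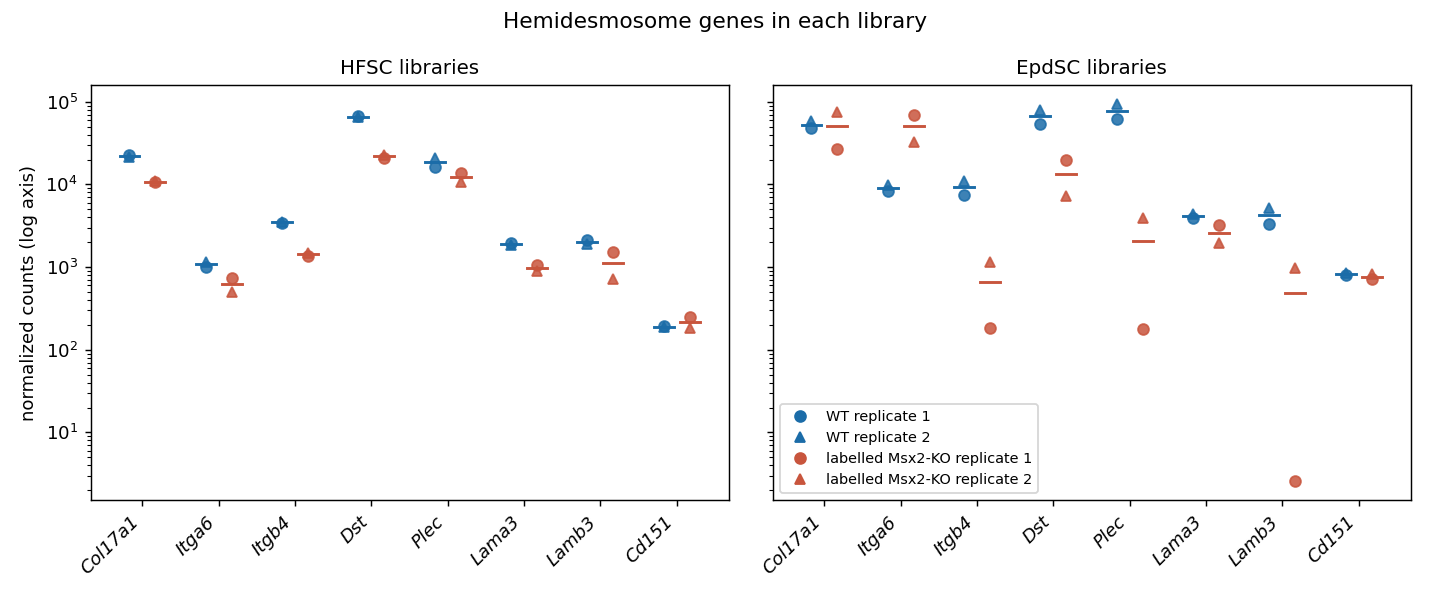
Normalized counts (log axis) of the 8 hemidesmosome genes in each library, HFSC libraries on the left and EpdSC libraries on the right, with WT in blue, libraries labelled Msx2-KO in red and a bar at each group mean of 2 libraries. In HFSCs the red points of 7 genes lie below the blue ones, and in EpdSCs Itga6 lies above while Itgb4, Plec and Lamb3 lie far below, Lamb3 reaching 2.55 in 1 library. The 2 tables were scaled separately, so heights are compared within a panel only.

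At an unadjusted p under 0.05, 4 of the 8 were lower (Col17a1, Itgb4, Dst and Lama3), against 12.8% of all genes, and 0 were higher, against 5.3%. The median log2 difference of the 8 was -0.90, and that of all genes tested was -0.14. The summed level of the 8 was 113776 to 116235 in WT and 48331 to 50380 in Msx2-KO HFSCs. In bulk samples, fewer cells of a type and less RNA per cell cannot be told apart.

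The count of calls depended on the test, and the size of the differences on single libraries. DESeq2 called 2 of the 8 lower, Dst (adjusted p = 6.76e-07) and Itgb4 (adjusted p = 0.00332), against 2.5% of all genes called lower, and gave Col17a1 an adjusted p of 0.00834 with a fold just under the limit (log2 -0.98). limma-trend called Itgb4 alone (adjusted p = 0.0351), against 8.66%. Without Msx2-KO replicate 1, the median log2 difference of the 8 in edgeR was -1.12, beside -0.32 for all genes. Without Msx2-KO replicate 2 it was -0.70, beside -0.72 for all genes, so the 8 were then no lower than all genes. These fits leave 1 Msx2-KO library, assumed to vary like WT.

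Markers of other cells moved with the HFSC comparison. Of 9 tested genes of suprabasal epidermis, 7 lay above WT in both Msx2-KO libraries, as did 17.5% of all genes, while Calml3 lay below and Sbsn overlapped. The summed level of that list was 2605 to 2680 in WT against 5854 to 20440. All 5 tested sebaceous gland genes lay above WT, with sums of 154 to 162 and 5167 to 6839. Cycling cell genes summed to 258 to 310 in WT and 2266 to 3161 in Msx2-KO, with 4 of 5 above. The HFSC marker list, which includes Cd34 and Krt15, lay below WT in 7 of its 8 genes (33.5% of all genes did), with sums of 53087 to 56770 against 27164 to 29411. Of 4 fibroblast genes with HFSC counts, 2 were tested and both lay below WT (33.5% of all genes did). The list summed to 310 to 396 in WT and 86.8 to 172 in Msx2-KO. Among those too low to be tested, Pdgfra was at 20.4 and 5.92 in WT and at 0 in both Msx2-KO libraries, while Fbn1 overlapped. The part of these in the differences of the 8 hemidesmosome genes was not tested.

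EpdSCs gave another picture. Col17a1, the highest of the 8 per length in WT, did not separate the genotypes, Itga6 was higher in both libraries labelled Msx2-KO, and its integrin partner Itgb4 was lower in both, together with Dst, Plec, Lama3 and Lamb3. None of the 8 was called by limma on log2(value + 1), where 9.35% of the 16231 genes tested were called, 7.78% lower and 1.57% higher. At an unadjusted p under 0.05, 3 of the 8 were lower (Itgb4, Dst and Plec), against 23.1% of all genes, and 1 was higher (Itga6), against 12.2%.

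Col17a1 was at 47555 and 58426 in WT and at 26811 and 74756 in Msx2-KO EpdSCs. The WT libraries lay between the Msx2-KO libraries, and the log2 difference was -0.24 ± 0.71 (adjusted p = 0.821 in limma). Without Msx2-KO replicate 1 it was 0.50, so its sign rested on that library. The same order of libraries, replicate 1 low and replicate 2 high around WT, was seen in none of the other 7 genes.

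The 2 integrin chains differed in opposite directions. Itga6 was at 8229 and 9959 in WT and at 68397 and 32855 in Msx2-KO EpdSCs, 5.24-fold higher (log2 2.39 ± 0.61, adjusted p = 0.0890 in limma). Itgb4 was at 7432 and 11067 in WT and at 183 and 1148 in Msx2-KO EpdSCs, 19.7-fold lower (log2 -4.30 ± 1.08, adjusted p = 0.0882 in limma). The Msx2-KO libraries did not overlap WT for either gene, and differed from each other 6.26-fold for Itgb4. Cd151 was at 807 and 841 in WT and at 708 and 814.2 in Msx2-KO EpdSCs, which overlapped, with a log2 difference of -0.12 ± 0.46 and an adjusted p of 0.862 in limma.

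Both plakins lay lower. Dst was at 54529 and 78763 in WT and at 19603 and 7249 in Msx2-KO EpdSCs (log2 -2.46 ± 0.72, adjusted p = 0.109 in limma). Plec was at 62339 and 94428 in WT and at 177 and 3907 in Msx2-KO EpdSCs (log2 -6.52 ± 1.69, adjusted p = 0.0921 in limma). The 2 Msx2-KO libraries differed 22.1-fold from each other for Plec, and both were far under WT.

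Of the laminin chains, Lama3 was at 3962 and 4447 in WT and at 3209 and 1948 in Msx2-KO EpdSCs, with a log2 difference of -0.75 ± 0.53 (adjusted p = 0.353 in limma). Lamb3 was at 3304 and 5219 in WT, at 969 in Msx2-KO replicate 2, and at 2.55 in Msx2-KO replicate 1. That last value is 2 counts, and its exact Poisson interval of 95%, which covers counting error only, ran from 0.308 to 9.20. The WT mean was 1673 times the value of that library (463 to 13815 over the interval) and the fitted log2 difference of -6.15 ± 2.98 had an adjusted p of 0.218. Without that library the log2 difference was -2.10.

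**Figure D2:**
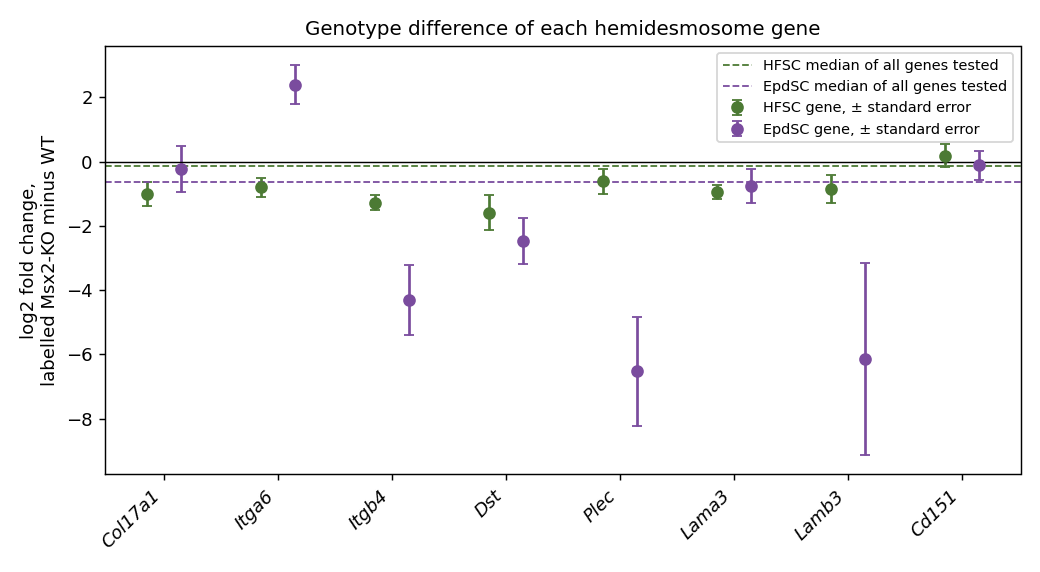
Log2 fold change, libraries labelled Msx2-KO minus WT, of each hemidesmosome gene with its standard error, HFSCs in green (edgeR) and EpdSCs in purple (limma on log2(value + 1)), 2 libraries per group. Dashed lines mark the median of all genes tested, -0.14 in HFSCs and -0.64 in EpdSCs. The EpdSC values spread from -6.52 for Plec to 2.39 for Itga6, and the HFSC values from -1.58 for Dst to 0.18 for Cd151.

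Over the 8 genes, 5 had both Msx2-KO EpdSC libraries below both WT libraries, against 44.5% of all genes, and 1 had both above, against 27.8%. The median log2 difference was -1.60, beside -0.64 for all genes tested. The summed level was 188158 to 263148 in WT and 119091 to 123647 in Msx2-KO. Leaving out Msx2-KO replicate 1 gave 4 calls by limma (Itga6, Itgb4, Dst and Plec), and leaving out replicate 2 gave these and Lamb3, again with a lone library assumed to vary like WT. Those fits called 2089 and 3745 of all genes higher and 4010 and 6631 lower, and the fits without WT replicate 1 or without WT replicate 2 called 0.

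Markers in EpdSCs moved as well. Of 10 suprabasal genes, 7 lay below WT in both Msx2-KO libraries (44.5% of all genes did), 3 of them called, and the other 3 overlapped, with sums of 217128 to 300703 in WT and 82118 to 107448 in Msx2-KO. Of 7 genes of interfollicular basal epidermis, the sorted type, 5 lay above WT (27.8% of all genes did), 1 below and 1 overlapped, with sums of 189876 to 220992 in WT and 488555 to 1007550 in Msx2-KO. Ly6d had the largest difference of that list (log2 5.40, adjusted p = 0.0664 in limma). Ly6a, which encodes the Sca-1 used in the EpdSC gate, was at 472 and 544 in WT and at 826 and 3493 in Msx2-KO. Both sebaceous gland genes in the table lay above WT, with sums of 3631 to 4513 and 10173 to 23819. Of 7 genes of the HFSC marker list 4 lay above WT and 3 overlapped, Lhx2 and Sox9 among the latter, and 1 was called, Postn, higher from 457 and 488 to 10771 and 8326. Of 5 cycling cell genes 3 lay above, among them Cdk1, which was called (adjusted p = 0.0416 in limma), 1 overlapped and 1 lay below, Mki67, at 2517 and 2055 in WT and at 7.64 and 294 in Msx2-KO EpdSCs. No fibroblast or melanocyte gene of the lists was in the EpdSC table. The part of these in the differences of the hemidesmosome genes was not tested.

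Ratios of counts inside a library do not depend on its scaling, and since counts are not set per length they compare libraries, not genes. The ratio of Itga6 to Itgb4 was 0.301 and 0.325 in WT HFSCs and 0.541 and 0.337 in Msx2-KO HFSCs. For EpdSCs it was 1.11 and 0.900 with WT and 373 and 28.6 with Msx2-KO, so that both Msx2-KO libraries stood far above WT there. In HFSCs the lower Msx2-KO ratio, 0.337 from 385 Itga6 and 1142 Itgb4 counts, was close to the higher WT ratio of 0.325. The ratio of Col17a1 to Itgb4 was 6.65 and 6.00 in WT HFSCs, 7.75 and 7.48 in Msx2-KO HFSCs and 6.40 and 5.28 in WT EpdSCs, but 146 and 65.1 in Msx2-KO EpdSCs. Over the 6 libraries other than the EpdSCs labelled Msx2-KO, that ratio varied 1.47-fold.

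Of the plakins, Dst was counted 4.05 and 3.14 times as often as Plec in WT HFSCs and 1.55 and 2.14 times in Msx2-KO HFSCs. For EpdSCs the ratio was 0.875 and 0.834 with WT and 111 and 1.86 with Msx2-KO. For the chains of laminin-332, the ratio of Lama3 to Lamb3 counts was 0.915 and 0.958 in WT HFSCs and 1.20 and 0.852 in WT EpdSCs. It was 0.693 and 1.26 in Msx2-KO HFSCs and 2.01 in Msx2-KO EpdSC replicate 2, while replicate 1, with its 2 Lamb3 counts, gave 1260 (349 to 10404 over the counting interval).

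**Figure D3:**
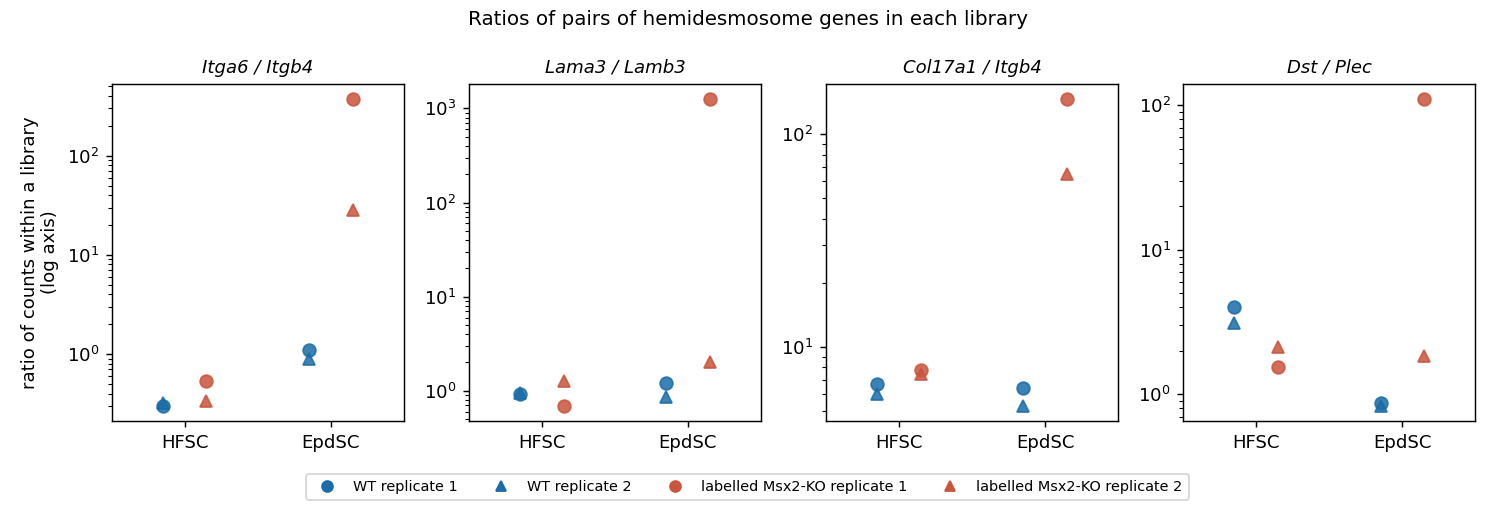
Ratios of counts (log axis) of 4 pairs of hemidesmosome genes within each library, with WT in blue and libraries labelled Msx2-KO in red. The EpdSC libraries labelled Msx2-KO lie above WT for every pair, while HFSC libraries of both genotypes lie within 2.61-fold of each other for each pair.

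Compared per kilobase of exon (union of all exons), levels in WT HFSCs ran from Col17a1, at 3726 and 3550 normalized counts per kb, through Dst, Plec, Itgb4, Lamb3, Lama3 and Itga6 to Cd151, at 70.1 and 69.1, and no neighbours in this order overlapped. In Msx2-KO HFSCs, Col17a1 again led, at 1768 and 1840 per kb. There Plec, at 753 and 589, stood above Dst, at 514 and 555. Lamb3 overlapped Itgb4, and Cd151 overlapped both Lama3 and Itga6.

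WT EpdSCs also had Col17a1 first, at 7911 and 9720 per kb, with Plec next at 3442 and 5213. Dst overlapped Itgb4, and Itgb4 overlapped Itga6, while Cd151 was last at 295 and 307. In Msx2-KO EpdSCs, Col17a1 (4460 and 12437 per kb) overlapped Itga6 (7579 and 3640), and the highest value of the other 6 genes was 476 (Dst). These orders are descriptions of levels within a table.

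Length and base composition differ among the 8 genes and moved with the comparison over all genes. In EpdSCs, the median log2 difference was -0.27 for genes whose longest transcript held 45% to 50% GC, -1.42 at 55% to 60% and -2.12 for the 563 genes at 60% or more, of which 74.6% were lower. Plec (61.3% GC) and Itgb4 fall in that last class, with differences of -6.52 and -4.30. Itga6 (48.9%) and Dst (49.5%) fall in the class from 45% to 50%, with differences of 2.39 and -2.46. In HFSCs the median was -0.34 for the 822 genes with a longest transcript of 8000 bases or more, of which 67.6% were lower, against 0.42 for genes under 1000 bases. Dst, Plec and Lama3 are among the former.

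When each library was corrected for GC content and length, a step chosen after seeing the data, the median log2 difference of the 8 genes in EpdSCs was 0.39 beside 0.27 for all genes. Plec was then at -2.89, Itgb4 at -1.85, Lamb3 at -4.57, Dst at -0.06, Itga6 at 2.93 and Col17a1 at 1.69. In HFSCs the median of the 8 was -0.36 beside 0.23 for all genes, with Dst at -0.81, Itgb4 at -0.82 and Col17a1 at -0.48. That HFSC fit also replaced edgeR and its scaling by limma on log2 values scaled to library totals. The part of the correction alone was not tested. None of the 8 was called after the correction in either cell type, and neither was any of the 14152 HFSC and 15859 EpdSC genes tested.

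**Figure D4:**
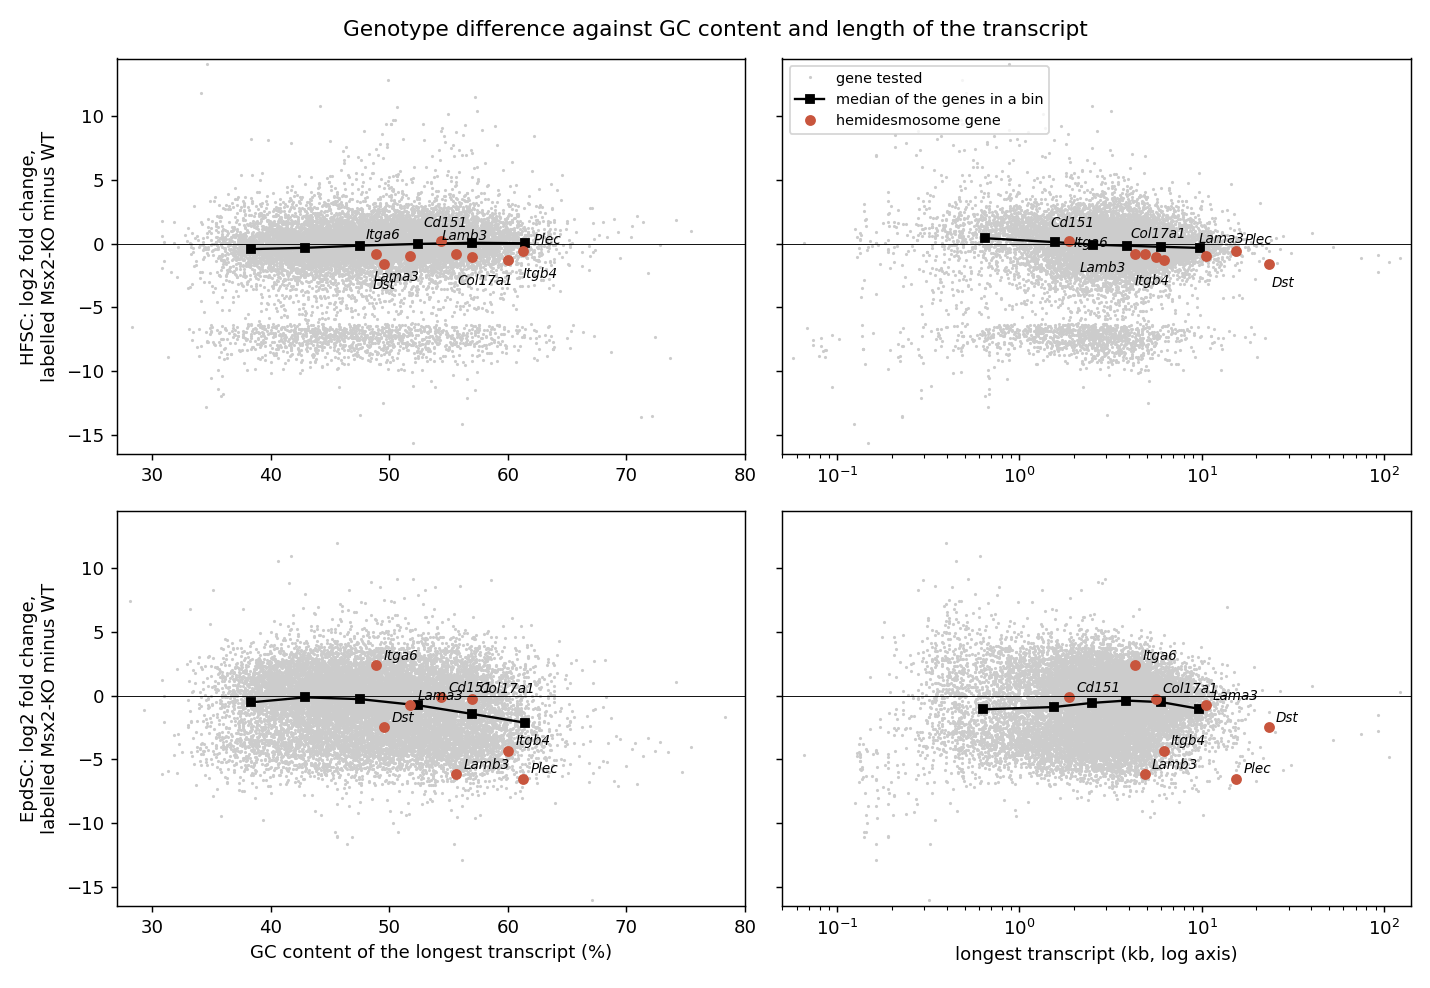
Log2 fold change, libraries labelled Msx2-KO minus WT, of every gene with a reference transcript (grey) against GC content (left) and length (right, log axis) of its longest transcript, in HFSCs (top) and EpdSCs (bottom), with the median of bins in black and the 8 hemidesmosome genes in red. The EpdSC median is -0.52 under 40% GC and -0.13 at 40% to 45%, and from there is lower in each bin, to -2.12 at 60% or more, and the HFSC median falls with length, to -0.34 at 8000 bases or more.

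Partners of the junction were examined in 4 lists: 19 genes of the basement membrane, 3 keratins of basal keratinocytes, 17 other integrins and focal adhesion linkers, and 14 regulators and sheddases. In HFSCs, 50 of these 53 genes were tested and 0 were called by edgeR (p under 0.05 in 4 lower and 3 higher, where 12.8% and 5.3% of all genes were). In EpdSCs, 48 were tested and limma called 2 lower, Lama5 and Lamb1, and 0 higher, where 7.78% and 1.57% of all genes were called. An unadjusted p under 0.05 was found in 8 lower and 7 higher, where 23.1% and 12.2% of all genes had it.

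Basement membrane genes, which supply the matrix to which the junction binds, were mixed in HFSCs. Of 17 tested, 4 lay below WT (33.5% of all genes did), 7 above (17.5%) and 6 overlapped, with a median log2 difference of 0.07 beside -0.14 for all genes. Col4a6, a chain of type IV collagen, was at 11.4 and 7.89 in WT and at 170 and 232 in Msx2-KO HFSCs (log2 4.34 ± 0.66, adjusted p = 0.143 in edgeR). Lamb1 was at 82.3 and 51.3 in WT and at 534 and 149 in Msx2-KO HFSCs (log2 2.34 ± 0.78, adjusted p = 0.232), and Fras1, of the Fraser complex, was at 51.3 and 47.3 against 97.0 and 210 (log2 1.63 ± 0.68, adjusted p = 0.342).

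In EpdSCs, 10 of the 16 basement membrane genes tested lay below WT (44.5% of all genes did), 4 above (27.8%) and 2 overlapped, with a median of -2.29 beside -0.64 for all genes. Lama5, the α chain of laminin-511, fell, from 1981 and 2821 in WT to 96.8 and 224 in Msx2-KO EpdSCs (log2 -3.99 ± 0.66, adjusted p = 0.0487 in limma). Lamb1 fell from 70.4 and 107 to 1.27 and 0.674 (log2 -5.49 ± 0.53, adjusted p = 0.0266 in limma), and each of the latter is 1 count. The WT mean of Lamb1 was 69.7 and 132 times those values, with counting intervals of 12.5 to 2754 and 23.6 to 5203.

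The keratins are the filaments on the inner side of the junction. Krt5 was at 15051 and 15545 in WT and at 9377 and 9166 in Msx2-KO HFSCs (log2 -0.72 ± 0.33), and Krt15, a bulge keratin, at 28679 and 27129 against 13530 and 16882 (log2 -0.88 ± 0.42). Krt14, the partner of Krt5, was at 3896 and 4075 against 5241 and 4499 (log2 0.29 ± 0.26). In EpdSCs all 3 keratins lay above WT in both Msx2-KO libraries, as did 27.8% of all genes. Krt14 was at 71869 and 84155 in WT and at 392157 and 275191 in Msx2-KO EpdSCs (log2 2.08 ± 0.50, adjusted p = 0.0832 in limma). Krt15 had a log2 difference of 1.21 ± 0.49 (adjusted p = 0.172 in limma) and Krt5 of 0.36 ± 0.47 (adjusted p = 0.597).

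Other integrins and their linkers join the cell to the matrix through actin. In HFSCs 8 of 16 lay below WT (33.5% of all genes) and 2 above (17.5%), with a median of -0.33. Among them Itga2 and Itga3, α chains that pair with Itgb1, had log2 differences of -2.18 ± 0.72 and -1.86 ± 0.86, and Itgb6 of -1.35 ± 0.71. In EpdSCs 2 of 15 lay below (44.5% of all genes) and 9 above (27.8%), with a median of 1.03. Tln1, which encodes the integrin activator talin, was at 2998 and 3849 in WT and at 12.7 and 195 in Msx2-KO EpdSCs (log2 -6.03 ± 1.47, adjusted p = 0.0843 in limma). Itgb5 and Ilk (integrin-linked kinase) were higher in both Msx2-KO libraries, with log2 differences of 2.82 ± 0.97 and 2.43 ± 0.51.

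Regulators and sheddases included the proteases known to release the ectodomain of collagen XVII. In HFSCs 6 of 14 lay below WT and 2 above, beside 33.5% and 17.5% of all genes, with a median of -0.41. Adam9 was at 205 and 181 in WT and at 24.6 and 44.0 in Msx2-KO HFSCs (log2 -2.50 ± 0.61, adjusted p = 0.143 in edgeR), Adam10 had a log2 difference of -1.05 ± 0.52, and Met, the receptor of hepatocyte growth factor, of -1.42 ± 0.61. In EpdSCs 1 of 14 lay below and 6 above, beside 44.5% and 27.8%, with a median of 0.41. The tetraspanins Cd9 and Cd81 both had a log2 difference of 2.25 there, with SEs of 0.89 and 0.62, and Mst1r, the receptor of macrophage-stimulating protein, was at 914 and 913 in WT and at 38.2 and 181 in Msx2-KO EpdSCs (log2 -3.44 ± 0.92).

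**Figure D5:**
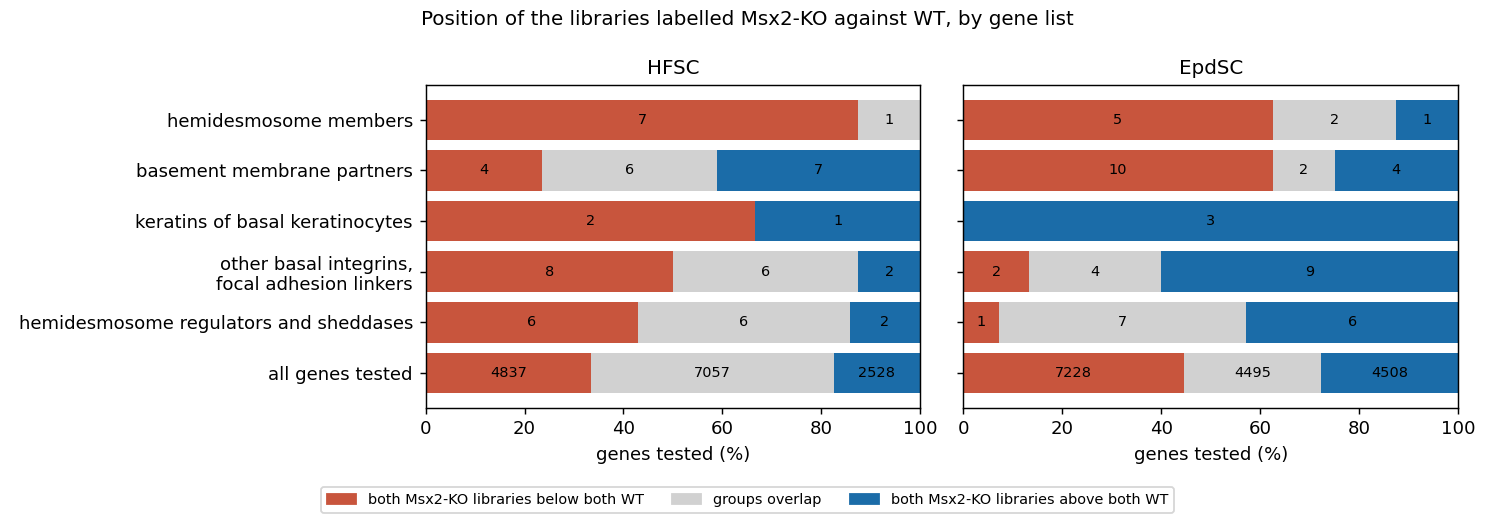
Share of the genes tested (%) in each list with both libraries labelled Msx2-KO below both WT libraries (red), above them (blue) or overlapping (grey), in HFSCs (left) and EpdSCs (right), with the number of genes in each part of a bar. The hemidesmosome genes have 7 of 8 below in HFSCs and 5 of 8 below in EpdSCs, beside 4837 of 14422 and 7228 of 16231 for all genes tested.

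Genes whose pattern lay closest to that of Col17a1 over the 8 libraries were sought among 5570 genes with a mean of at least 100 in both tables, by the root mean square difference of log2 values centred within each table. The 5 closest were Suz12 (0.116), Tmem245 (0.135), Ahcyl2 (0.172), Crim1 (0.199) and Tnfrsf1a (0.200). Suz12 was at 200 and 215 in WT and at 110 and 106 in Msx2-KO HFSCs, and at 466 and 495 in WT EpdSCs against 208 and 731 in Msx2-KO EpdSCs. Of the other hemidesmosome genes, Cd151 ranked 455 and Lama3 629, while Dst (3428), Itga6 (3623), Itgb4 (4578), Plec (5328) and Lamb3 (5455) were farther.

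Exons of some of the 8 genes overlap those of other genes in GENCODE M21, and whether counting used strand is not given in the sources used here. The shared exon length was 537 bases between Itgb4 and B230344G16Rik, 1037 between Dst and Gm26788, 456 between Dst and A930005N03Rik, 205 between Plec and Parp10, 197 between Lama3 and Gm29200 and 193 between Cd151 and Gm10575. Parp10 lies on the same strand as Plec, so strand could not separate their shared stretch. The other partners lie on the opposite strand, and their reads can be told apart only if counting used strand.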

How the data were processed

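Bulk RNA-seq libraries (stranded total RNA) were aligned by the authors with STAR 2.7.3a in Partek Flow to GRCm38/mm10, GENCODE M25. The HFSC table deposited by the authors gives estimated counts without normalization, rounded here. For EpdSCs the authors deposited a normalized signal (counts divided by 1 factor per library) in which low genes had been filtered. Comparison columns of the authors were not used.

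HFSC counts were TMM-scaled and tested with edgeR 4.0.16 (quasi-likelihood, filterByExpr) and EpdSC values with limma 3.58.1 on log2(value + 1), with Benjamini-Hochberg adjustment over all genes of a table. The tables were not tested against each other. Normalized HFSC counts refer to 6101080 counts per library. GC content and length came from GENCODE M21. R 4.3.3, DESeq2 1.42.0 and, for the figures, Python with matplotlib were also used, and the scripts were tested on simulated data.

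The 8 genes, the lists and the tests were chosen with earlier results of these data known. Named genes were the 8 members, Msx2, the called genes of each of the 4 lists or, where it had none, up to 3 genes with the largest non-overlapping difference and a mean of at least 100, and the 5 genes closest to Col17a1. Marker genes named alone were chosen after their values were seen. Alternatives were other tests, scalings, filters, pseudocounts and thresholds, a replicate block, leaving out each library, and a GC and length correction added later.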

Additional observations from a re-analysis of the deposited data

Results flagged for a closer look

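The libraries labelled Msx2-KO lay on opposite sides of WT in HFSCs and EpdSCs for 7 of the 27 genes named from the hemidesmosome and partner lists. The matching share over all genes was not computed, so this count has no background to be read against. The partner genes were also named because they were called or did not overlap in at least 1 cell type. Over all genes tested, 33.5% lay below WT and 17.5% above in HFSCs, and 44.5% and 27.8% in EpdSCs. The difference between the cell types was not tested, because the tables were scaled separately, and in HFSCs genotype is joined to age. Itga6, whose protein is in both sort gates, had a log2 difference of -0.80 in HFSCs and 2.39 in EpdSCs. Lamb1 was at 2.34 in HFSCs and -5.49 in EpdSCs, the latter resting on 1 count in each Msx2-KO library. The keratins Krt5 (-0.72 and 0.36) and Krt15 (-0.88 and 1.21) were lower in HFSCs and higher in EpdSCs. The same held for Itgb6 (-1.35 and 1.70), Adam9 (-2.50 and 0.53) and Met (-1.42 and 0.51).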

How the results depend on the processing

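Over 13 HFSC alternatives, 102 of 104 log2 differences of single members kept their direction, and over 11 EpdSC alternatives 84 of 88 did. The reversals were HFSC Cd151 with library totals (-0.65) and without Msx2-KO replicate 1 (-0.078, with a range over the libraries left out of -0.078 to 0.38), EpdSC Col17a1 without Msx2-KO replicate 1 (0.50, with a range of -0.98 to 0.50), and, with the GC and length correction, EpdSC Col17a1 (1.69), Lama3 (1.04), Cd151 (0.85) and the median of the 8 (0.39). The cause of these was not tested.

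In HFSCs, DESeq2 called 2 members and 330 genes higher and 360 lower, limma-trend 1 member and 158 higher and 1249 lower, library totals 16 higher and 35 lower, and a minimum of 10 counts 2 higher. The median of the members was -1.73 with library totals, where that of all genes was -1.002. It was -0.36 with the GC and length correction, fitted by limma, beside 0.23 for all genes. Without the low-count filter it was -0.92, beside -0.70 for all genes, and with the replicate block -0.95, beside -0.65. With at least 10 counts in every library it was -0.82, beside 0.08. Without Msx2-KO replicate 2 it was -0.70, beside -0.72, so the members were then no lower than all genes. Leaving out 1 library gave 0 to 4 members called, 90 to 2711 genes higher and 35 to 6561 lower, and a median of -1.12 to -0.70.

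In EpdSCs, pseudocounts of 0.1 and 10 gave 162 and 619 genes higher, where a pseudocount of 1 gave 255. Leaving out mitochondrial and ribosomal RNA genes gave a median of -2.20, where that of all genes was -1.19. The GC and length correction gave 0 higher and 0 lower. Leaving out 1 library gave 0 to 5 members called, 0 to 3745 genes higher and 0 to 6631 lower.

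Whether replicate numbers pair the samples is not given in the labels. Differences between replicates correlated across genes at -0.0556 in HFSCs and -0.0225 in EpdSCs. With 1 such difference per genotype, these values cannot decide it. With the replicate block, 145 HFSC genes were called higher and 86 lower, with 0 members. In EpdSCs the block gave 178 genes higher and 1093 lower of 16231, with 1 member, Plec (adjusted p = 0.0418 in limma). The smallest p an exact permutation test could give here is 0.333.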
